A study of Mus musculus with 12 samples.

Results

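Of the 566 mouse miRNA probes measured, 7 belonged to the miR-99/100 and miR-125 families. They were chosen by name, as every mouse probe for miR-99a, miR-99b, miR-100, miR-125a or miR-125b, whichever arm of the precursor it reads. These were mmu-miR-99a, mmu-miR-99b, mmu-miR-100, mmu-miR-125a-5p, mmu-miR-125a-3p, mmu-miR-125b-5p and mmu-miR-125b-3p, written here without the species prefix. MiR-125a-3p was singled out for its time course, a signal that was highest at 60 min of stimulation and lower again at 120 min, so its values are a description with no test. In all 12 samples 6 of the 7 lay above the lowest value of the table, a floor of 20, and the same 6 passed the filter on low signal that left 166 mouse miRNAs for testing. MiR-125b-3p lay at the floor in all 12 samples, so no level can be given for it.

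The samples were IMM, immortalized mouse macrophages, a line that divides without limit in culture and was grown in DMEM with heat-inactivated serum. After 5 passages from a frozen stock the dishes received lipopolysaccharide (LPS) at 100 ng/mL, a cell wall component of Gram-negative bacteria that macrophages sense through Toll-like receptor 4. The 4 groups were 0 min of LPS, named as the control, and 30, 60 and 120 min of LPS, with 3 biological replicates in each. All groups shared the line and the medium, the way the line was made was not given in the sources used here, and no unstimulated dish of a later time was analysed here, so that LPS and time in the dish cannot be told apart. Total RNA was read on a NanoString miRNA panel, which ligates a tag to each miRNA and counts barcoded probes one molecule at a time without amplification.

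A miRNA precursor is a short hairpin cut by Dicer into a duplex, from which one arm is usually kept in the Argonaute complex while the other, the passenger arm, is mostly degraded. The arm that is kept finds its targets chiefly through its seed, bases 2 to 8 from the 5′ end. MiR-125 is the vertebrate relative of lin-4, the miRNA that times larval development in Caenorhabditis elegans, and miR-99 and miR-100 belong to a second old family. In mammals both families lie in clusters with let-7, and the clusters are known from blood stem cells. In macrophages miR-125b is known to bind the message of tumour necrosis factor and that of Irf4, and in several cell types miR-99 and miR-100 are known to repress Mtor, the kinase of a growth pathway.

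The mature sequences of the detected members are shown because they define 3 seeds and show how nearly alike the paralogs are, which bears on how far a probe can tell them apart. They come from RefSeq (GRCm38.p6), each on the plus strand, with the seed in capitals. The probe names miR-99a, miR-99b and miR-100 carry no arm and were taken as the 5p arm, for which these are the older names.
miR-125a-5p: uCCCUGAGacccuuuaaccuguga
miR-125b-5p: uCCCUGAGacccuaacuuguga
miR-99a: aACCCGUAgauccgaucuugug
miR-99b: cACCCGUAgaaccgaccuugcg
miR-100: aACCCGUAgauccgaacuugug
miR-125a-3p: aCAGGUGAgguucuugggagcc

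MiR-125a-5p and miR-125b-5p share the seed CCCUGAG and their first 13 and last 5 bases, with lengths of 24 and 22 bases. MiR-99a, miR-99b and miR-100 share the seed ACCCGUA. MiR-99a and miR-100 differ by the single substitution U16A, counted from 1 at the 5′ end of miR-99a. MiR-99a and miR-99b differ by 4, A1C, U11A, U16C and U21C, and miR-100 and miR-99b also by 4, A1C, U11A, A16C and U21C. How far the probes for these near-identical miRNAs also counted each other was not tested. Of the 566 probes, 422 were matched by name to a RefSeq mature sequence. A probe name not listed there was tried as the 5p arm, which may be the wrong arm for some probes. Among these the seed CCCUGAG was shared with 1 further probe, miR-351, which never left the floor, and ACCCGUA was held by the 3 members alone. The seed CAGGUGA of miR-125a-3p occurred in no other matched probe, and the seeds of the unmatched probes were not searched.

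The 2 arms of miR-125a face each other across 1 hairpin, shown in full with the mature arms in capitals, miR-125a-5p first and miR-125a-3p second. The hairpin is 68 bases long and lies at chr17:17830812-17830879 on the plus strand (GRCm38.p6).
Mir125a: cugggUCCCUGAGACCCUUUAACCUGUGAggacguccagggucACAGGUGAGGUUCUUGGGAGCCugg

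The genes of these members lie in 3 clusters, each with a let-7 gene between a miR-99 or miR-100 gene and a miR-125 gene. On chromosome 17, Mir99b (17830188 to 17830257), Mirlet7e (17830352 to 17830444) and Mir125a span 692 bases inside Spaca6 (17826085 to 17843010), a protein-coding gene known from sperm and egg fusion. On chromosome 16, Mir99a (77598936 to 77599000), Mirlet7c-1 (77599657 to 77599750) and Mir125b-2 (77646273 to 77646343) span 47408 bases, beyond the annotated end of the long noncoding RNA gene Mir99ahg (77329328 to 77558428). On chromosome 9, Mir100 (41531425 to 41531504), Mirlet7a-2 (41536716 to 41536811) and Mir125b-1 (41581926 to 41582002) span 50578 bases inside the long noncoding RNA gene Mir100hg (41376526 to 41615185). The mature miR-125b-5p from chromosomes 9 and 16 is identical, so its probe reads the sum of both genes, whereas each other detected member has 1 gene. In bulk RNA of this kind, fewer cells that make a miRNA and less of it per cell cannot be told apart.

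The deposited values are called signal here, and above the floor they were whole multiples of 1 step per sample, so that signal divided by the step gives counts. Depth ran from 138655 counts in 0 min replicate 1 to 365403 in 120 min replicate 1. The geometric mean of 4 housekeeping mRNAs was 9390.3 in every sample, which puts the signal on a per-mRNA scale. On that scale the 0 min group held the library with the fewest counts and the largest step, 2.26 signal units a count against 0.748 to 1.31 in the other 11. The ligation controls, added RNAs that report on tagging, gave 142, 278 and 293 counts per 1000 positive control counts at 0 min and 384 to 529 in the 9 stimulated samples. Every change from 0 min below comes with this difference in tagging, and its part in those changes was not tested. For that reason the members were also read on 2 other scales, one that divides each sample by the geometric mean of its 100 most abundant miRNAs (top-100 scale) and one that divides it by its ligation controls (ligation scale). Of 6 miRNAs typical of myeloid cells 5 were detected, miR-142-3p (mean 8873) and miR-146a (3684) the highest, and their summed signal ran from 5226 to 10971 at 0 min and from 10765 to 28715 at 120 min. MiR-155, which is often induced in activated macrophages, lay at the floor in all 12 samples. Of 18 markers of other lineages 7 never left the floor and 4 passed the filter, and their summed signal ran from 870 to 1645 at 0 min and from 891 to 1460 at 120 min. MiR-199a-3p (mean 561) and miR-126-3p (170) were the highest of these.

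Among the members, signal was highest for miR-125a-5p, miR-99a and miR-125b-5p and lowest for miR-125a-3p and miR-100. Each probe has its own efficiency, so this order describes signal and not molecules. Mean signal over the 12 samples was 1292 ± 425 (SD) for miR-125a-5p, which ranked 28 of the 566 probes and held 0.597% of the miRNA signal. MiR-99a ranked 29 with 1136 ± 279 and miR-125b-5p ranked 35 with 921 ± 289, so that these 3 neighbours lay within 1 SD of each other. MiR-99b ranked 73 with 185 ± 58.6, miR-125a-3p ranked 101 with 96.4 ± 67.3 and miR-100 ranked 102 with 94.1 ± 31.5, the last pair again within their spread. The SD of miR-125a-3p was the largest relative to its mean.

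**Figure D1:**
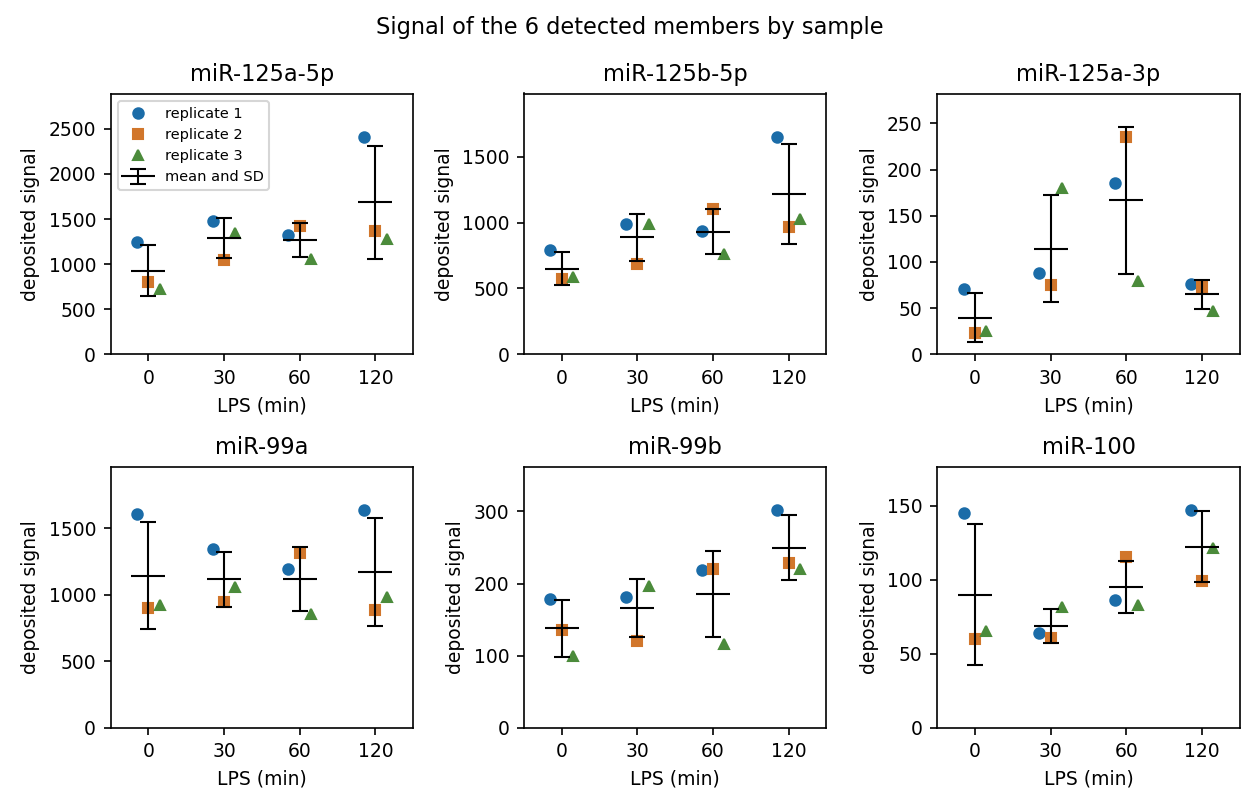
Deposited signal (vertical axis, linear, from 0, with a scale of its own in each panel) of the 6 detected members against minutes of LPS. Points are the 3 replicates of each time, and the bar is the mean with its SD. MiR-125a-3p is highest at 60 min and lower at 120 min, and the 120 min samples of miR-125a-5p, miR-125b-5p and miR-99b all lie above the 0 min samples.

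MiR-125a-3p, the arm less kept from the miR-125a hairpin, was low before LPS, higher at 30 and 60 min, and lower again at 120 min. Its signal was 70.2, 23.4 and 25.5 in the 0 min samples, 87.8, 74.55 and 180.5 at 30 min, 186, 235 and 79.6 at 60 min, and 75.6, 72.55 and 46.4 at 120 min. On the deposited scale all 30 min and all 60 min samples lay above every 0 min sample, and the 120 min samples overlapped the 0 min samples. The lowest 60 min sample (replicate 3) lay just above the highest 120 min sample. The group means were 39.7 ± 26.5 (SD, n = 3), 114 ± 57.7, 167 ± 79.6 and 64.85 ± 16.1, which is 2.88, 4.21 and 1.63 times the 0 min mean. Without 0 min replicate 1 the 0 min mean was 24.4, the means stood at 4.68, 6.84 and 2.66 times it, and the 120 min samples no longer overlapped 0 min. Of the 166 tested miRNAs, 15.7% had all 30 min samples above every 0 min sample and 18.1% had all 60 min samples there. Since these contrasts chose miR-125a-3p, nothing is read from its place among them.

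Counts place the 0 min level at the edge of detection. MiR-125a-3p had 31, 27 and 30 counts at 0 min, 74, 75 and 152 at 30 min, 178, 179 and 90 at 60 min, and 69, 91 and 62 at 120 min. The highest of the 8 negative control probes, which match no RNA, had 32, 26 and 28 counts in the 0 min samples. At 0 min miR-125a-3p thus stood at 0.969, 1.04 and 1.07 times the highest negative control, whereas in the 9 stimulated samples it stood at 2.09 to 5.97 times. The exact 95% Poisson intervals, which cover counting error only, ran from 17.8 to 44.0 counts over the 0 min samples, from 129 to 178 for 30 min replicate 3, and from 154 to 207 for 60 min replicate 2. Counts are not scaled for depth, which was 138655, 231808 and 206536 in the 0 min samples. It was 218544 to 268804 at 30 and 60 min and 320818 to 365403 at 120 min. In counts the intervals of the 0 min samples overlapped one another and none of the stimulated ones, whereas in signal the 120 min samples overlapped 0 min. Since the 0 min counts stood near the highest negative control, a fold against 0 min is a fold against a level not separated from background.

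**Figure D2:**
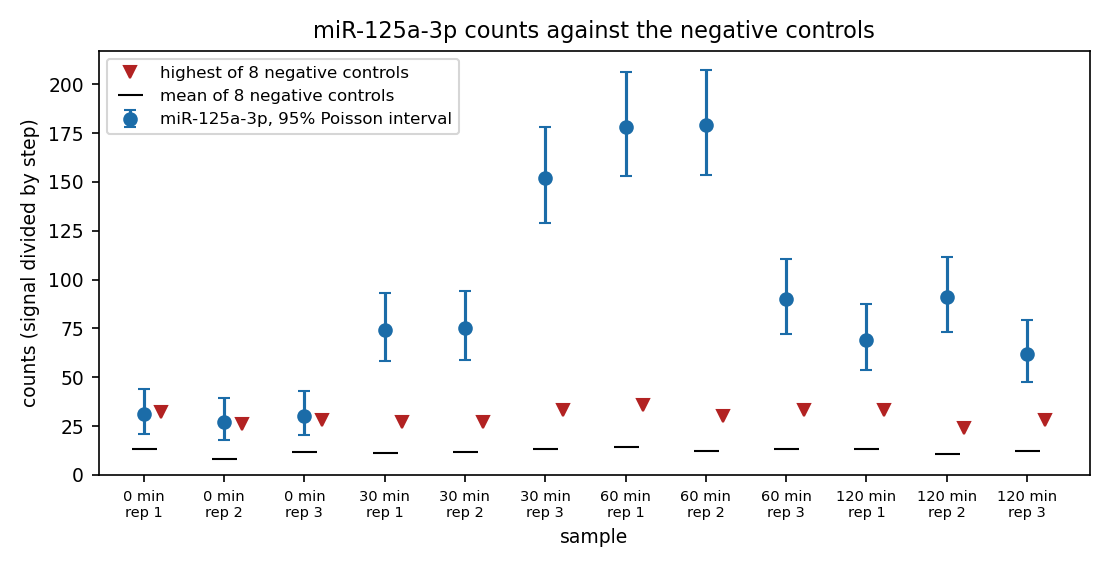
Counts of miR-125a-3p (signal divided by the sample's step, linear axis from 0) in each of the 12 samples, with exact 95% Poisson intervals. Triangles are the highest and dashes the mean of the 8 negative control probes of the same sample. The 0 min points, at 27 to 31 counts, coincide with the highest negative control, and the stimulated points, at 62 to 179, lie above it.

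On all 3 scales the 60 min level of miR-125a-3p was above those at 0 and 120 min, read as differences between group means of log2 signal. On the deposited scale miR-125a-3p at 60 min lay 2.13 above 0 min, beside a median of 0.44 over the 166 tested miRNAs. On the top-100 scale this difference was 1.65 and on the ligation scale 1.30, with medians of -0.03 and -0.39. From 60 to 120 min the difference was -1.26, -1.42 and -1.19 on the 3 scales in the same order, beside medians of 0.15, -0.01 and 0.21. The 60 min samples all lay above every 0 min sample on each scale. At 30 min this did not hold on the ligation scale, with 70.9, 76.6 and 138 against 82.5 in 0 min replicate 1. Each scale moves all miRNAs of a sample alike, so the place of miR-125a-3p among them is the same on each by construction. The difference at 60 min thus moved with the scale by more than the later drop did, and both are the features for which the arm was picked.

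The partner arm, miR-125a-5p, did not show this course. As a share of miR-125a-5p counts in the same sample, a ratio that no sample-wide scaling alters, miR-125a-3p was 5.62, 2.93 and 3.50% at 0 min and 5.94, 7.16 and 13.5% at 30 min. It was 14.0, 16.6 and 7.50% at 60 min, and 3.14, 5.29 and 3.62% at 120 min. All 60 min samples and all 30 min samples lay above the 0 min samples, 30 min replicate 1 by little, and the 120 min samples fell among the 0 min samples. The means were 4.01 ± 1.42% (SD, n = 3), 8.86 ± 4.04%, 12.7 ± 4.68% and 4.02 ± 1.13%, or 2.21, 3.16 and 1.00 times the 0 min mean. With the mean negative control taken off the counts of both arms the means were 2.51 ± 0.686%, 7.88 ± 3.98%, 11.7 ± 4.73% and 3.40 ± 1.14%, or 3.14, 4.67 and 1.36 times. The percentages set one probe against another and do not give the share of molecules on each arm.

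**Figure D3:**
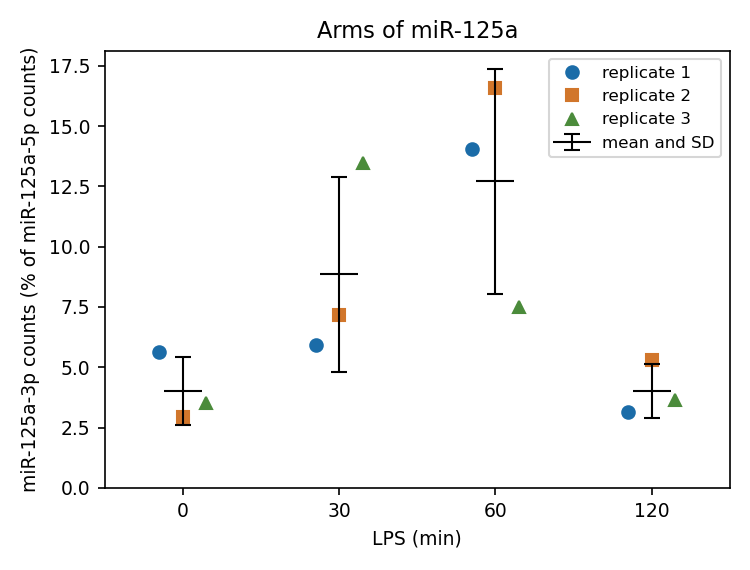
MiR-125a-3p counts as a percent of miR-125a-5p counts in the same sample (linear axis from 0) against minutes of LPS. Points are the 3 replicates, and the bar is the mean with its SD. The mean is 4.01% at 0 min, 12.7% at 60 min and 4.02% at 120 min.

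Other hairpins with both arms on the panel gave a yardstick for this arm ratio. The names paired 65 hairpins, and in 7 of them both arms passed the filter. The log2 ratio of the weaker over the stronger arm of miR-125a changed by 1.11 at 30 min, 1.64 at 60 min and 0.02 at 120 min against 0 min, and by -1.62 from 60 to 120 min. Among the other 6 pairs the 60 min change ran from -1.31 to 0.55 with a median of -0.19, and the change from 60 to 120 min ran from -0.14 to 0.48. At 60 min the arm ratio of miR-199a-5p, from a hairpin abundant in mesenchymal cells, changed by 0.55 and that of miR-340-3p by 0.30. The ratio for miR-423-5p changed by -0.22, for miR-362-5p by -0.65, and for miR-142-5p, from a hairpin typical of blood cells, by -1.31. The 60 min change and the later drop of the miR-125a ratio were thus the largest of the 7, as a description of the pair that was picked for them.

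By likeness of pattern, the 5 tested miRNAs closest to miR-125a-3p over the 12 samples were miR-1937c, miR-362-3p, miR-297c, miR-29b and miR-142-3p. Pearson's r of log2 signal on the top-100 scale was 0.876, 0.794, 0.763, 0.752 and 0.742 in that order, given as a description with no p. The group means of miR-1937c were 134 ± 39.1, 231 ± 41.0, 289 ± 135 and 210 ± 38.3 (SD, n = 3) on the deposited scale, so that it too was highest at 60 min. MiR-142-3p, a marker of blood cells, had 3937 ± 1717, 8563 ± 3129, 12292 ± 3141 and 10701 ± 6704. The ligation controls A, B and C, put on the same top-100 scale, gave r of 0.696, 0.543 and 0.660 with miR-125a-3p. Per 1000 positive control counts, however, they stood at 460, 487 and 384 at 60 min and at 529, 498 and 510 at 120 min. They were thus not lower at 120 min, where miR-125a-3p was. The part of tagging in the pattern was not tested. The other 5 members gave r between -0.43 for miR-99a and -0.26 for miR-99b.

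MiR-125a-5p, the kept arm of that hairpin, had its highest mean at 120 min. Its signal was 1250, 797 and 728 at 0 min, 1478, 1041 and 1339.5 at 30 min, 1325, 1419.8 and 1061 at 60 min, and 2409, 1371 and 1280.5 at 120 min. All 120 min samples lay above the 0 min samples, by little in replicate 3, and the 30 and 60 min samples overlapped them. The means were 925 ± 283, 1286 ± 224, 1269 ± 186 and 1687 ± 627 (SD, n = 3).

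MiR-125b-5p, its paralog from chromosomes 9 and 16, had a similar course. Its signal was 793, 573 and 586 at 0 min, 992, 682 and 990.4 at 30 min, 934, 1100.3 and 758 at 60 min, and 1649, 964 and 1027 at 120 min. Again only the 120 min samples all lay above the 0 min samples. The means were 650 ± 123, 888 ± 179, 930 ± 171 and 1213 ± 379.

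MiR-99b, the neighbour of miR-125a on chromosome 17, was the third member with 120 min samples apart from 0 min. Its signal was 179, 135 and 100.2 at 0 min, 182, 120.3 and 196 at 30 min, 218, 221 and 117 at 60 min, and 301, 228 and 220.0 at 120 min, with means of 138 ± 39.4, 166 ± 40.2, 185 ± 59.4 and 250 ± 44.8.

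MiR-99a, the neighbour of miR-125b-2 on chromosome 16, showed nearly equal means at all times. Its signal was 1606, 898 and 919 at 0 min, 1342, 947 and 1055 at 30 min, 1192, 1315 and 851 at 60 min, and 1633, 887 and 984 at 120 min. The replicates spread more than the times, with means of 1141 ± 402, 1115 ± 204, 1119 ± 240 and 1168 ± 405.

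MiR-100, which differs from miR-99a in 1 base, had the lowest signal of the 5. Its signal was 145, 59.7 and 65.4 at 0 min, 64.1, 60.6 and 81.9 at 30 min, 86.7, 116 and 83.1 at 60 min, and 147, 98.9 and 121 at 120 min. The groups overlapped at every time, and 0 min replicate 1, the library with the largest step, lay near the highest 120 min sample. The means were 90.0 ± 47.6, 68.9 ± 11.4, 95.2 ± 17.9 and 122 ± 24.0.

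None of these 5 members passed on the deposited scale at any time. In limma, with Benjamini-Hochberg adjusted p over the 166 tested miRNAs and a threshold of 0.05, 0 of 5 were called against 0 min at 30, 60 or 120 min, and 0 of 5 between 30 and 60 or 60 and 120 min. At 120 min 3 of the 5 had an unadjusted p under 0.05, beside 38.6% of the 166. At 30 and 60 min 0 of the 5 did, beside 12.7% and 23.5%, and between 30 and 60 and between 60 and 120 min 0 again, beside 3.01% and 9.04%. The fit gave every miRNA the same variance, so each log2 change has an SE of 0.38. At 120 min the log2 change was 0.85 for miR-125a-5p (adjusted p = 0.0820), 0.87 for miR-125b-5p (adjusted p = 0.0787), 0.88 for miR-99b (adjusted p = 0.0787), 0.54 for miR-100 (adjusted p = 0.272) and 0.03 for miR-99a (adjusted p = 0.957), beside a median of 0.57 over the 166.

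Earlier changes were smaller. At 60 min they were 0.49, 0.52, 0.40, 0.18 and 0.00 in the same order of members (adjusted p from 0.412 to 0.995), beside a median of 0.43. At 30 min they were 0.50, 0.44, 0.27, -0.27 and 0.01 (adjusted p from 0.605 to 0.989), beside a median of 0.28. Of the 166, limma called 3.01% higher and 0.0% lower at 30 min, 10.8% higher and 0.0% lower at 60 min, and 21.7% higher and 0.0% lower at 120 min. Between 30 and 60 min it called 0.602% higher and 0.0% lower, and between 60 and 120 min none in either direction. By the order of samples alone, 3 of the 5 members had no 120 min sample under the highest 0 min sample, and so did 34.9% of the 166. The 120 min count of 0 moved to 4 higher without 0 min replicate 1 (log2 changes of 1.08 for miR-125a-5p, 1.02 for miR-125b-5p, 1.08 for miR-99b and 0.94 for miR-100). Without that library 46.4% of the 166 were called higher and their median change was 0.81, so the gain ran through the panel.

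On the top-100 scale, whose 100 miRNAs include 4 of these members and which takes out the shift shared by most miRNAs, miR-99a alone of the 5 was called. There its signal was 1423, 1335 and 1484 at 0 min, 1213, 1164 and 991 at 30 min, 989.6, 1007 and 1067 at 60 min, and 953, 847 and 999 at 120 min. Every stimulated sample lay below every 0 min sample, as held for 22.9% of the 166 at 30 min, 24.1% at 60 min and 31.9% at 120 min. The log2 changes in limma were -0.34 ± 0.12 (SE, adjusted p = 0.0899), -0.47 ± 0.12 (adjusted p = 0.0153) and -0.60 ± 0.12 (adjusted p = 0.00234), beside medians of -0.06, -0.03 and -0.06. MiR-99a was called lower at 60 and 120 min, so 0, 1 and 1 of the 5 members were called lower, beside 0.602%, 19.9% and 27.1% of the 166. None of the 5 was called higher on this scale, beside 0.0%, 11.4% and 14.5% of the 166 at the 3 times. At 120 min the other changes were 0.21 for miR-125a-5p, 0.24 for miR-125b-5p, 0.24 for miR-99b and -0.09 for miR-100 (adjusted p from 0.169 to 0.743).

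On the ligation scale miR-99a was again lower, and so was most of the panel. Its log2 changes were -0.81, -0.82 and -0.72 at 30, 60 and 120 min (adjusted p = 0.00362, 0.00268 and 0.00595 in limma), beside medians of -0.52, -0.38 and -0.18. MiR-100 was called lower at 30 min (-1.08, adjusted p = 0.00271) and 60 min (-0.63, adjusted p = 0.0275), and miR-99b at 30 min (-0.54, adjusted p = 0.0276). That made 3, 2 and 1 of 5 members called lower at the 3 times, beside 47.6%, 37.3% and 28.9% of the 166. A change of scale moves all members of a sample alike, so their order is much the same on each scale by construction, whereas the sign of most changes before 120 min differed between scales.

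**Figure D4:**
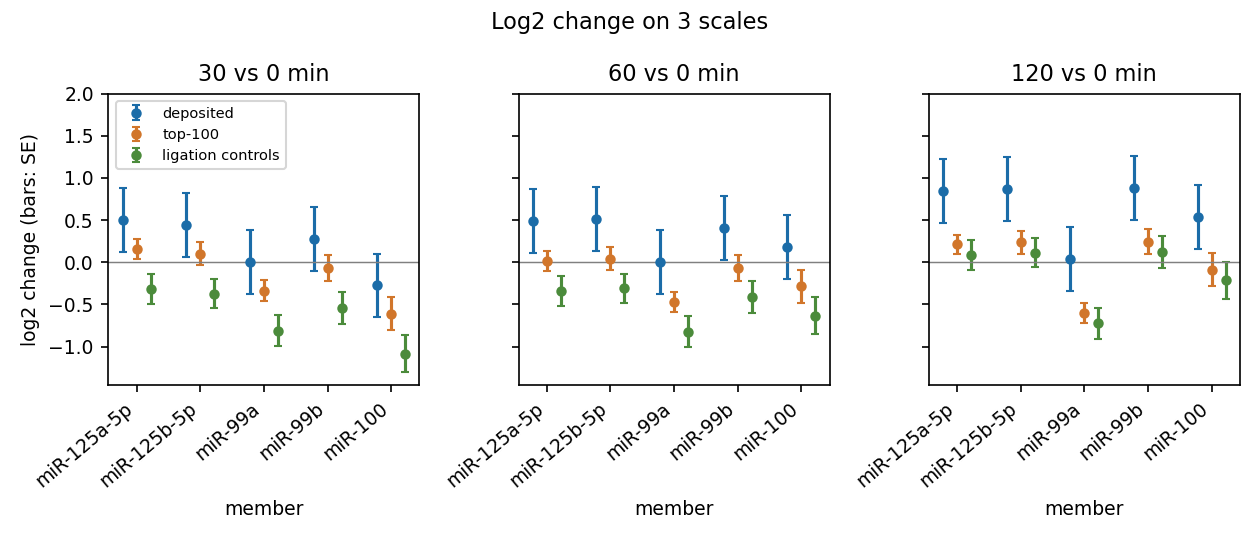
Log2 change against 0 min (vertical axis) of the 5 members other than miR-125a-3p, at 30, 60 and 120 min, in limma on 3 scales. Points are estimates and bars are 1 SE, from 3 against 3 samples. MiR-99a is at 0.01, 0.00 and 0.03 on the deposited scale and between -0.34 and -0.82 on the other scales, while miR-125a-5p, miR-125b-5p and miR-99b at 120 min run from 0.85 to 0.88 on the deposited scale and from 0.09 to 0.24 on the other scales.

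Ratios between members inside 1 sample do not depend on a sample-wide scale. The ratio of both miR-125 paralogs to miR-99a was higher at each later time than at 0 min and highest at 120 min. That of the miR-125 paralogs to each other did not pass the test. MiR-125b-5p over miR-99a, a pair that shares the chromosome 16 cluster for one of the miR-125b genes, was 0.494, 0.638 and 0.637 at 0 min, 0.739, 0.720 and 0.939 at 30 min, 0.784, 0.837 and 0.890 at 60 min, and 1.01, 1.09 and 1.04 at 120 min. Every stimulated sample lay above every 0 min sample, and the 120 min samples lay above all others. The means were 0.590 ± 0.0830 (SD, n = 3), 0.799 ± 0.121, 0.837 ± 0.0532 and 1.05 ± 0.0382, a log2 change of 0.84 at 120 min.

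MiR-125a-5p over miR-99a, which lie on different chromosomes, was likewise highest at 120 min, with nearly equal means at 30 and 60 min. The ratio was 0.779, 0.887 and 0.792 at 0 min, 1.10, 1.10 and 1.27 at 30 min, 1.11, 1.08 and 1.25 at 60 min, and 1.48, 1.55 and 1.30 at 120 min, again with every stimulated sample above every 0 min sample. The means were 0.819 ± 0.0592, 1.16 ± 0.0982, 1.15 ± 0.0881 and 1.44 ± 0.126, a log2 change of 0.81 at 120 min. By an exact permutation test of the F statistic over the 369600 divisions of 12 samples into 4 groups of 3, p was 0.000779 for this ratio and 0.000974 for miR-125b-5p over miR-99a. Both had an adjusted p of 0.00487 over the 10 pairs of members in this exact test, whose smallest possible p is 6.49e-05. Both passed without any one of the 12 samples.

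Ratios that set a later time apart from 0 min were common on the panel. Over the 8256 pairs of the 129 miRNAs above the floor in all samples, 37.3% of ratios had all 30 min samples beyond every 0 min sample, in either direction. At 60 min 40.9% did so, and at 120 min 46.7%. At 120 min 21.6% of the pairs changed by at least as much as miR-125b-5p over miR-99a. These shares rest on the order of samples and the size of change, not on the exact test. The share of panel pairs that would pass the exact test was not determined. Whether the 2 passes are unusual on this panel was therefore not tested. The 2 passing ratios share miR-99a and are not independent of each other.

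**Figure D5:**
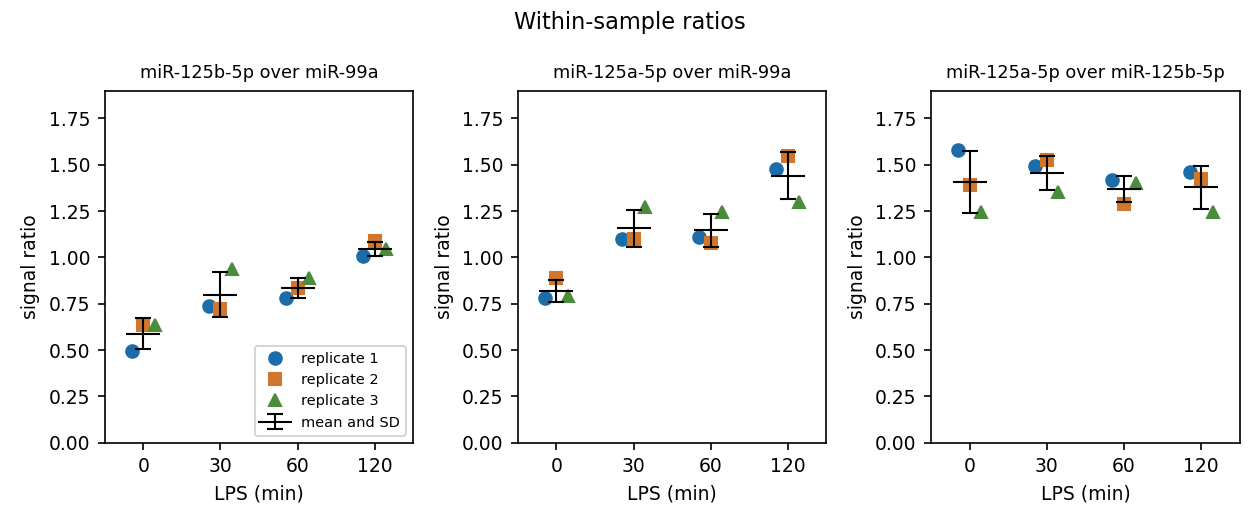
Within-sample signal ratios (linear axis from 0) against minutes of LPS for miR-125b-5p over miR-99a, miR-125a-5p over miR-99a, and miR-125a-5p over miR-125b-5p. Points are the 3 replicates, and the bar is the mean with its SD. Means rise from 0.590 to 1.05 and from 0.819 to 1.44 against miR-99a, and run from 1.37 to 1.46 between the miR-125 paralogs.

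The other 8 ratios did not pass the exact test, whose p covers all 4 times together and not 120 min alone. MiR-125a-5p over miR-125b-5p was 1.40 ± 0.167, 1.46 ± 0.0917, 1.37 ± 0.0697 and 1.38 ± 0.114, with overlap at every time (exact permutation test, adjusted p = 0.790). The 120 min log2 change was -0.02, and over the samples left out in turn it ran from -0.11 to 0.06. MiR-99a over miR-99b, paralogs of different clusters, had means of 8.27 ± 1.40 at 0 min and 4.59 ± 0.770 at 120 min, where all samples lay below the 0 min samples (log2 change -0.84, adjusted p = 0.0570, exact). MiR-99a over miR-100, which differ in 1 base, had a log2 change of -0.50 at 120 min, where the samples overlapped 0 min (adjusted p = 0.0570, exact). MiR-125b-5p over miR-100 had 0.33 at 120 min, also with overlap (adjusted p = 0.0570, exact). That ratio was highest at 30 min, 12.9 ± 2.24 against 8.01 ± 2.22 at 0 min, where the groups did not overlap. MiR-125a-5p over miR-100 was highest at 30 min, 18.9 ± 3.67 against 11.0 ± 2.36 at 0 min, where the groups did not overlap, and did not pass (adjusted p = 0.0687, exact). The remaining 3, which set miR-99b against the miR-125 paralogs and miR-100, had adjusted p from 0.464 to 0.771 in the exact test.

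The let-7 neighbours of the 3 clusters, miRNAs known for holding back cell growth, were set beside the members. Let-7e, which lies between Mir99b and Mir125a, had 252 ± 106, 246 ± 41.6, 278 ± 68.9 and 339 ± 163 (SD, n = 3), and let-7c and let-7a had 120 min means 1.57 and 1.71 times their 0 min means. None of the 3 was called on the deposited or the top-100 scale with all samples and no block. Without 0 min replicate 1, let-7c and let-7a were called higher at 120 min on the deposited scale (0.93 and 0.95, adjusted p = 0.0304 and 0.0273 in limma), and let-7a also with the replicate number as a block (adjusted p = 0.0386). At 120 min their log2 changes were 0.41, 0.71 and 0.79 on the deposited scale (adjusted p = 0.431, 0.150 and 0.107 in limma) and -0.23, 0.07 and 0.15 on the top-100 scale. On the ligation scale all 3 were called lower at 30 min and let-7e also at 60 min. Let-7c and let-7a have further genes outside these clusters, so of the 3 only let-7e has its gene in 1 cluster alone. Its sequence is nearly that of let-7a, whose mean signal was 12657 against 279 for let-7e. How far the let-7e probe also counted let-7a was not tested, and the same holds for the let-7e ratios below.

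Within the chromosome 17 cluster the ratio of miR-125a-5p to let-7e was 3.39, 3.61 and 4.42 at 0 min, 5.28, 5.21 and 5.17 at 30 min, 4.56, 4.17 and 5.19 at 60 min, and 4.60, 5.03 and 5.84 at 120 min. The 30 and 120 min samples lay above the 0 min samples and the 60 min samples overlapped them, as a description with no test. MiR-99b over let-7e was 0.568 ± 0.0724 at 0 min and 0.805 ± 0.216 at 120 min, with overlap. MiR-99a over let-7c, of the chromosome 16 cluster, was 0.561 ± 0.166 at 0 min and 0.343 ± 0.0532 at 120 min, also with overlap.

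Outside the families, miR-10a and miR-10b, textbook relatives of miR-99 and miR-100, have the seed ACCCUGU. MiR-10b lay at the floor in all 12 samples. MiR-10a, whose gene lies in a Hox cluster, was above the floor in 6 of 12 samples, with means of 20.3, 21.6, 24.3 and 34.5 at the 4 times. It lay under the filter and was not tested, and all 3 of its samples at 120 min were above the floor.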

How the data were processed

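Signal values were deposited by the authors as 1 table of 626 probes and 12 samples (software not given in the sources used here). Within 0.1 of a step, 100% of the values above the floor of 20 were whole multiples of 1 step per sample. Negative and positive controls carry no step, unlike the ligation controls, and entries under 20 were raised to 20. A planned test on whole counts was therefore not run. Members and lists were chosen with earlier results of these data known. Mouse miRNAs whose mean signal exceeded the negative controls' mean plus 2 SD (30.5) were kept. That threshold is in unscaled counts, so signal was set against counts. Limma 3.58.1 (R 4.3.3) was run on log2(signal + 1), two-sided, with 1 mean per time and no block. Its log2 changes carry that pseudocount, and p was adjusted over 166 miRNAs. The code was first checked on simulated data with independent noise of the same SD for every miRNA. Those data held no shift shared by a whole sample, so the check cannot show how p behaves under such shifts. The prior degrees of freedom were infinite, so p-values lean on residuals pooled over miRNAs. Replicates are labelled biological, and p-values measure the spread between them. Named miRNAs were the members, their cluster and seed relatives, the 5 closest to miR-125a-3p and 6 arm pairs. Replicate numbers were checked for pairing by correlating deviations of same-numbered samples over the miRNAs. For replicates 1, 2 and 3 the lowest correlations were -0.03, -0.38 and -0.11, the medians 0.06, 0.01 and 0.07, and the highest 0.30, 0.22 and 0.35. Same-numbered samples were not treated as pairs. Such correlations cannot show a shift of whole samples that a replicate number shares. Sequences and positions come from RefSeq.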

Additional observations from a re-analysis of the deposited data

How the results depend on the processing

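Over 8 other settings and 12 samples left out in turn, 0 of 5 members were called between 30 and 60 or 60 and 120 min. Against 0 min, the count of 0 moved at 30 min to 3 on the ligation scale, all lower. At 60 min it moved to 1 on the top-100 scale and 2 on the ligation scale, all lower. At 120 min it moved to 1 lower on either scale, to 2 higher with a pseudocount of 20 (miR-125a-5p 0.83, adjusted p = 0.0443, and miR-125b-5p 0.85, adjusted p = 0.0408, in limma), and over the samples left out from 0 to 4. With the pseudocount of 20, 20.5% of the 166 were called higher at 120 min. The cause of the pseudocount's effect was not tested.

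The replicate number as a block moved the 120 min count to 3 higher (miR-125a-5p, miR-125b-5p and miR-99b, adjusted p = 0.0260, 0.0235 and 0.0234 in limma), beside 36.7% of the 166 called higher, and with the top-100 scale to 1 lower at 60 and 120 min, beside 17.5% and 27.1%. Samples shared only a number, and 5 of 12 correlated best with their own. Under the block the same 2 ratios passed (exact adjusted p = 0.0174).

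Signs turned as follows. On the ligation scale miR-125a-5p was -0.32 and -0.34 and miR-125b-5p -0.37 and -0.31 at 30 and 60 min, miR-99a -0.81, -0.82 and -0.72 at the 3 times, miR-99b -0.54 and -0.42 at 30 and 60 min, and miR-100 -0.63 and -0.21 at 60 and 120 min. On the top-100 scale, with or without the block, miR-99a was -0.34, -0.47 and -0.60, miR-99b -0.067 and -0.066 at 30 and 60 min, and miR-100 -0.28 and -0.090 at 60 and 120 min. With samples left out, deposited changes of miR-99a ran from -0.14 to 0.28 at 30 and 60 min and from -0.23 to 0.31 at 120 min, and those of miR-100 from -0.51 to 0.13 at 30 min and -0.049 to 0.58 at 60 min. A pseudocount of 20 turned miR-125a-5p over miR-99b to 0.044 and miR-125b-5p over miR-99b to 0.063; with samples left out these ran from -0.17 to 0.056 and from -0.11 to 0.14, and miR-125a-5p over miR-125b-5p from -0.11 to 0.063.

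The ratios to miR-99a passed without each sample in turn, with changes of 0.76 to 0.88 for miR-125a-5p and 0.71 to 0.90 for miR-125b-5p. The number of passing ratios ran from 2 to 4, with 4 without 0 min replicate 2 or 30 min replicate 3. On the top-100 scale, an alternative added after seeing the data left out each sample: miR-99a ran from -0.65 to -0.53 at 120 min, and from -0.51 to -0.43 at 60 min, where without 60 min replicate 2 it did not pass (-0.46, adjusted p = 0.0516 in limma).

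MiR-125a-3p changed on the ligation scale by 0.78, 1.29 and 0.11 at 30, 60 and 120 min, against 1.58, 2.09 and 0.85 on the deposited scale with a pseudocount of 1. With samples left out, the deposited changes ran from 1.19 to 2.07, 1.78 to 2.59 and 0.57 to 1.34. Its 0 min percent of miR-125a-5p was 2.51 with background taken off and ran from 3.21 to 4.56 with samples left out; the 30, 60 and 120 min percents ran from 6.55 to 10.3, 10.8 to 15.3 and 3.38 to 4.46. The test on whole counts was not run. At 0 min miR-125a-3p was not separated from the negative controls. This held in replicate 1, the library with the fewest counts (138655), and in replicates 2 and 3 (231808 and 206536). The 30 min libraries had 218544 to 233833 counts. The floor hides up to 45.3 in 0 min replicate 1.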
